A study of Mus musculus with 11 samples.

Results

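The 10 genes described here encode 7 matrix metalloproteinases (MMPs), Mmp2, Mmp3, Mmp10, Mmp12, Mmp13, Mmp14 and Mmp19, and 3 tissue inhibitors of metalloproteinases (TIMPs), Timp1, Timp2 and Timp3. They were taken by symbol from a table of 38406 genes, where all 10 were present. All 10 also passed the minimum for testing, a mean of at least 10 normalized counts over all libraries, as did 13215 genes in all. RNA came from pulverized back skin of Trex2 KO mice (6 libraries, replicates 7 to 12) and of WT mice (5 libraries, replicates 2 to 6), which the submitters call biological replicates. The mice were female C57BL/6 animals 8 to 10 weeks old. All were shaved and then given 125 mg of 5% imiquimod cream on the back on each of 4 days, and skin was taken 24 hours after the last dose. Imiquimod is an agonist of the innate receptor TLR7, and its cream is used to produce psoriasis-like skin inflammation in mice. Trex2 encodes a 3′-to-5′ DNA exonuclease of keratinocytes. Every animal received imiquimod and no skin without it was analysed here, so each difference below is one between genotypes within inflamed skin.

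MMPs are zinc-dependent enzymes that cut collagens, proteoglycans and other matrix proteins, and also shed or inactivate cytokines and chemokines. Most are secreted as inactive proenzymes that another protease must cut, while Mmp14 is anchored in the cell membrane. TIMPs bind active MMPs and block them. In wounded or inflamed skin, keratinocytes at the lesion, dermal fibroblasts and infiltrating myeloid cells each make a different set of these genes, and transcript levels say nothing of how much of the proenzyme is activated.

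Trex2 itself averaged 1.85 ± 0.91 normalized counts in Trex2 KO libraries and 1480 ± 446 in WT libraries (SD, n = 6 and 5), with ranges that did not overlap, so each library carried the level its label gives. The libraries held 3125366 to 15557862 counted reads in Trex2 KO and 1208896 to 5853454 in WT. Keratinocyte, fibroblast, endothelial and myeloid markers had reads in every library. The summed normalized counts of 8 keratinocyte markers ranged from 94819 to 295029.9 in Trex2 KO and from 54091 to 149979.7 in WT. Trex2 KO replicates 9 and 12 had the highest keratinocyte sums of the 11 libraries (295029.9 and 265704.1) and stood apart from the other Trex2 KO libraries for several of the genes below, so values without them are given beside the results for the 10 genes and for the lists. Within WT, replicate 4 had the highest keratinocyte sum and the lowest neutrophil sum. Because whole skin was sequenced, fewer cells of a type and less RNA per cell cannot be told apart.

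The metalloproteinase genes Mmp13, Mmp12, Mmp3 and Mmp10 lie in a cluster on chromosome 9 (GRCm38, GENCODE M21), all on the plus strand, with Mmp1b and Mmp1a between them. Mmp13 spans bases 7272514 to 7283331, Mmp12 spans 7344381 to 7369499, Mmp3 spans 7445822 to 7455975 and Mmp10 spans 7502352 to 7510240. The sequences just before the transcription starts of these 4 neighbours are shown because all 4 carry the same short motif. RefSeq promoter entries (GRCm38.p6) were found for 8 of the 10 genes, with 9 start sites in all, and the 250 bases before each start were searched on both strands for TGANTCA, the consensus of the AP-1 family of transcription factors, which is its own reverse complement, and for TATAAA, the TATA box. In the stretches of 90 bases that end at the base before the start, given 5′ to 3′, capitals mark these matches.
Mmp13, chr9:7272424-7272513, plus strand: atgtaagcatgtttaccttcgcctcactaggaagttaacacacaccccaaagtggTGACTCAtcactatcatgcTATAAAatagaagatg
Mmp12, chr9:7347284-7347373, plus strand, second of its 2 listed starts: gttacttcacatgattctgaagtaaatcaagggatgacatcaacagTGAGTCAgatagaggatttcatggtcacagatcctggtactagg
Mmp3, chr9:7445732-7445821, plus strand: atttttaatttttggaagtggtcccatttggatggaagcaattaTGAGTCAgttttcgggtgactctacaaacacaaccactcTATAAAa
Mmp10, chr9:7502252-7502341, plus strand: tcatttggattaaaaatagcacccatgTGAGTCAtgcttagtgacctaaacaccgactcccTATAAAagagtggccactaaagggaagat

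The AP-1 motif began 35 bases before the start in Mmp13, 44 in Mmp12, 46 in Mmp3 and 63 in Mmp10. It was present before 4 of the 8 genes, or 4 of their 9 start sites, against 6.75% of the 32851 mouse promoters in the same table. TATAAA was found before 3 of the 8 genes (Mmp13, Mmp3 and Mmp10), or 3 of the 9 start sites, against 12.4% of promoters. It began 16 bases before the listed start in Mmp13, 7 in Mmp3 and 29 in Mmp10, and whether it acts as a TATA box was not tested. The first listed start of Mmp12 had neither motif, so Mmp12 is counted through its second start only. Neither motif was found in the windows of Mmp14, Timp1, Timp2 or Timp3. The 4 genes with the AP-1 motif are neighbours of 1 gene family, so they are not independent examples, and a match of letters is a description of the sequence and not evidence that a factor binds there.

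Levels of different genes were compared per length, as normalized counts per kilobase of annotated exon. Mmp3, stromelysin 1, which cuts proteoglycans and laminin and activates other proMMPs, was highest in both genotypes, with 1091 ± 379 per kilobase in Trex2 KO and 1914 ± 500 in WT (SD, n = 6 and 5). Timp1, a secreted inhibitor of most soluble MMPs, came next with 888 ± 246 in Trex2 KO and 1788 ± 595 in WT. Their order was not the same in every library, since Mmp3 exceeded Timp1 in 4 of 6 Trex2 KO and 3 of 5 WT libraries. Mmp2, Timp2, Mmp14, Mmp19, Mmp13, Mmp10, Timp3 and Mmp12 followed in that order in both genotypes. Mmp12 was lowest, with 4.17 ± 2.98 per kilobase in Trex2 KO and 7.10 ± 1.85 in WT, below every library of Timp3.

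The ranges of most neighbours in this order overlapped across libraries, though within single libraries the order often held. Mmp2 exceeded Timp2, Mmp14 exceeded Mmp19, Mmp13 exceeded Mmp10 and Timp3 exceeded Mmp12 in 6 of 6 Trex2 KO and 5 of 5 WT libraries. Timp1 exceeded Mmp2 in 5 of 6 and 5 of 5, and Timp2 exceeded Mmp14 in 6 of 6 and 4 of 5. Mmp19 exceeded Mmp13 in 6 of 6 and 3 of 5, and Mmp10 exceeded Timp3 in 4 of 6 and 5 of 5. Within Trex2 KO, Timp3 and Mmp12 were the 1 adjacent pair whose libraries did not overlap, and within WT the adjacent pairs apart from each other were Timp1 over Mmp2, Mmp10 over Timp3 and Timp3 over Mmp12. The order also depends on the length used: with the principal transcript in place of all exons, which the annotation marks for all but Mmp12 and Mmp19, Mmp14 followed Timp1 in both genotypes, ahead of Mmp2 and Timp2.

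**Figure D1:**
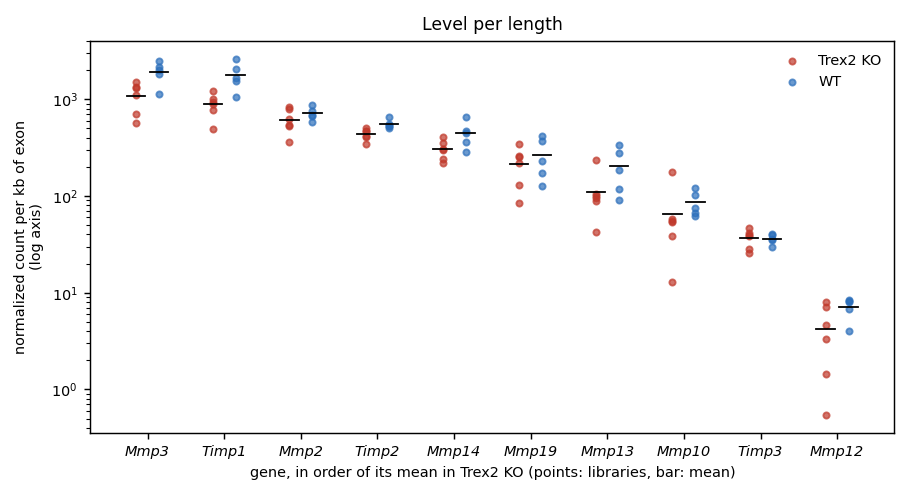
Level of each gene in normalized counts per kilobase of exon on a log axis, with 1 point per library, Trex2 KO left of WT, and a bar at each group mean. Mmp3 and Timp1 are highest and Mmp12 lowest in both genotypes, and the Trex2 KO points of Mmp12 and Mmp10 spread most.

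The question for the comparison of genotypes was whether any of these 10 genes differed between Trex2 KO and WT skin. None of the 10 passed an adjusted p of 0.05 (limma, Benjamini-Hochberg over all 13215 genes), a threshold that 0.0151% of tested genes passed. Their estimates were nevertheless mostly on 1 side: 9 of 10 had a negative log2 fold change (Trex2 KO over WT), against 49.0% of all tested genes. The median was −0.63, a value that 6.24% of tested genes reached or fell below, against 0.01 over all tested genes, and −0.73 over the 7 MMPs and −0.35 over the 3 TIMPs. An unadjusted limma p under 0.05 with a lower mean in Trex2 KO was found for 5 of 10 (Mmp3, Mmp13, Mmp14, Timp1 and Timp2), against 11.5% of tested genes. For 0 of 10 did the genotypes fail to overlap, against 1.29% of tested genes with Trex2 KO wholly lower and 1.02% with it wholly higher. On the recovered reads, edgeR called 0 of 10 (0.0303% of tested genes) and DESeq2 called 2 of 10, Mmp3 and Timp1, both lower in Trex2 KO (DESeq2 called 4.67% of tested genes, and 2.18% as lower). Without Trex2 KO replicates 9 and 12 the median was −0.29, 8 of 10 were negative, and 2 of 10 (Mmp3 and Timp1) had an unadjusted limma p under 0.05 with a lower mean, against 6% of tested genes. That count was 3 (Mmp3, Timp1 and Timp2) without any 1 of Trex2 KO replicates 9 and 12 and WT replicates 2 and 3. In that order, 10%, 7.51%, 10% and 8.44% of tested genes passed. The count was 0 with log10 depth as a covariate, where 2.29% of tested genes passed.

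**Figure D2:**
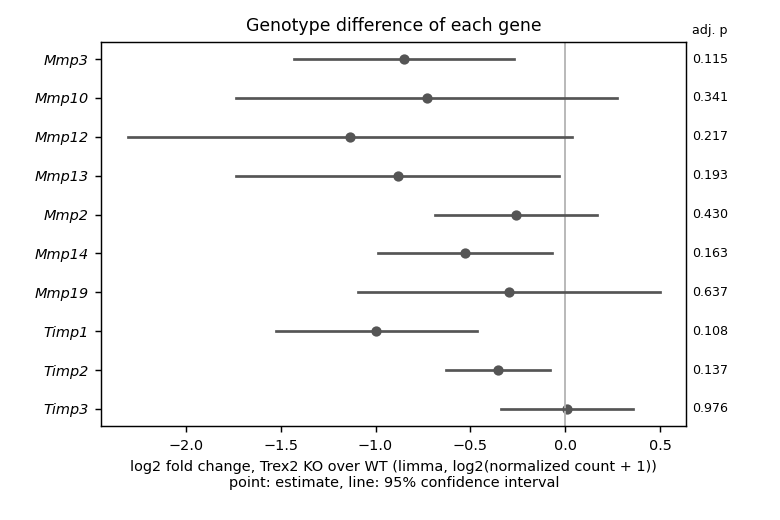
Log2 fold change of each gene, Trex2 KO over WT, on the log2(normalized count + 1) scale (points) with its 95% confidence interval (lines), and the limma adjusted p at the right. The intervals of Mmp3, Mmp13, Mmp14, Timp1 and Timp2 lie below 0, the other 5 include 0, and no adjusted p is below 0.108.

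Among the inhibitors, Timp1 had the smallest adjusted p of the 10. In Trex2 KO the lowest, median and highest libraries had 438, 809.7 and 1091 normalized counts of Timp1, and WT replicates 2, 3, 4, 5 and 6 had 2336, 1485, 927, 1358 and 1831. The genotypes touched at 1 library on each side: WT replicate 4, the lowest of its group, lay below Trex2 KO replicate 7, the highest of its group. The means were 788 ± 219 in Trex2 KO and 1587 ± 529 in WT (SD, n = 6 and 5), a log2 fold change of −0.995 (SE 0.247, limma adjusted p = 0.108). The estimate was −0.76 without Trex2 KO replicates 9 and 12 (limma adjusted p = 0.353), when Trex2 KO averaged 902 ± 134 (SD, n = 4), and −1.17 without WT replicate 4 (limma adjusted p = 0.033). DESeq2 gave −1.02 (adjusted p = 0.0137). Timp1 lies on chromosome X from 20870166 to 20874735, within the span of Syn1 on the other strand, and shares 0 exon bases with it.

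Timp2, which besides blocking MMPs helps Mmp14 to activate proMMP2, varied least among the 10 within each genotype. Its lowest, median and highest Trex2 KO libraries had 1338, 1726 and 1958 normalized counts, and the WT replicates 2 to 6 had 2054, 2134, 2561, 2073 and 1950.4. Trex2 KO replicate 8 lay just above WT replicate 6, and the other 5 Trex2 KO libraries lay below every WT library. The log2 fold change of Timp2 was −0.35 (SE 0.13, limma adjusted p = 0.137), with means of 1693 ± 226 in Trex2 KO and 2155 ± 237 in WT (SD, n = 6 and 5). It was −0.25 without Trex2 KO replicates 9 and 12 (limma adjusted p = 0.428). Timp2 lies on the minus strand of chromosome 11 from 118301069 to 118355740.

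Timp3, which is held in the matrix and also inhibits some ADAM proteases, lies on chromosome 10 from 86300372 to 86349506. The lowest, median and highest Trex2 KO libraries had 209.6, 320.5 and 376 normalized counts, and the WT replicates 2 to 6 had 292, 284, 326, 319 and 243. Trex2 KO libraries were both the lowest and the highest of the 11. The log2 fold change of Timp3 was 0.01, with a 95% confidence interval of −0.34 to 0.36 (limma adjusted p = 0.976), and its sign changed under several alternatives. Of its exon bases, 21.3% overlap Syn3 on the other strand, which averaged 0.394 normalized counts in Trex2 KO and 0.363 in WT.

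Mmp3 and Mmp10 are the stromelysins, close relatives whose reads may in part be assigned to either gene. For Mmp3 the lowest, median and highest Trex2 KO libraries had 1016, 2194 and 2731 normalized counts, and the WT replicates 2 to 6 had 3308, 4427, 2015, 3885 and 3596. Apart from WT replicate 4, every WT library lay above every Trex2 KO library. Mmp3 averaged 1964 ± 683 in Trex2 KO and 3446 ± 901 in WT (SD, n = 6 and 5), with a log2 fold change of −0.85 (SE 0.27, limma adjusted p = 0.115). It was −1.03 without WT replicate 4 (limma adjusted p = 0.0435), a setting in which 740 of the 13215 tested genes passed 0.05. This estimate was −0.50 without Trex2 KO replicates 9 and 12 (limma adjusted p = 0.374) and −0.82 in DESeq2 (adjusted p = 0.0481). For Mmp10 the Trex2 KO libraries spread widely, with a lowest of 22.2, a median of 94.0 and a highest of 302 normalized counts, and the WT replicates had 211, 176, 115, 131 and 107. In Trex2 KO 5 of the 6 libraries lay below every WT library, and replicate 11 lay above all of them. The log2 fold change of Mmp10 was −0.73 (SE 0.47, limma adjusted p = 0.341), and −0.16 without Trex2 KO replicates 9 and 12. On the recovered reads, edgeR gave −0.36 and DESeq2 −0.39 for Mmp10.

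Mmp13, collagenase 3, cuts fibrillar collagen and is a main interstitial collagenase of mice. Its lowest, median and highest Trex2 KO libraries had 113, 259 and 629 normalized counts, and the WT replicates 2 to 6 had 898, 501, 751, 245 and 319. Both genotypes were uneven: WT replicates 2 and 4 were the 2 highest libraries, Trex2 KO replicate 11 came next, and WT replicates 3, 5 and 6 lay within the Trex2 KO range. Mmp13 averaged 297 ± 174 in Trex2 KO and 543 ± 278 in WT (SD, n = 6 and 5), a log2 fold change of −0.88 (SE 0.40, limma adjusted p = 0.193). It was −0.59 without Trex2 KO replicates 9 and 12.

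Mmp12, the elastase of macrophages, was the least abundant of the 10. The lowest, median and highest Trex2 KO libraries had 3.97, 28.9 and 57.5 normalized counts, and the WT replicates 2 to 6 had 49.0, 58.7, 28.9, 60.8 and 59.6. These values rest on 5 to 96 reads per library. The lowest, Trex2 KO replicate 9, had 5 reads, and its 3.97 normalized counts have an exact Poisson 95% interval of 1.29 to 9.26, which covers counting error only. Trex2 KO replicates 9 and 12 were the 2 lowest libraries, while Trex2 KO replicates 8, 10 and 11 lay within the WT range. The log2 fold change of Mmp12 was −1.13 (SE 0.55, limma adjusted p = 0.217), and −0.32 without Trex2 KO replicates 9 and 12. On the recovered reads, edgeR gave −0.74 and DESeq2 −0.76. The summed counts of 8 macrophage and monocyte markers were 10973 to 21701 in Trex2 KO and 16235 to 24972 in WT, again with Trex2 KO replicates 12 and 9 lowest (10973 and 11523), and 6 of the 8 had a negative log2 fold change. None of those markers was at 0, and their part in the Mmp12 values was not tested.

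Mmp14, the membrane-type enzyme that activates proMMP2 at the cell surface, had 1298, 1788 and 2426 normalized counts in the lowest, median and highest Trex2 KO libraries. The WT replicates 2 to 6 had 3927, 2816, 1685, 2690.4 and 2164. The 3 highest libraries were WT replicates 2, 3 and 5, and WT replicate 4 lay below the median of Trex2 KO. Mmp14 had a log2 fold change of −0.53 (SE 0.21, limma adjusted p = 0.163), with means of 1812 ± 417 in Trex2 KO and 2656 ± 841 in WT (SD, n = 6 and 5). It was −0.34 without Trex2 KO replicates 9 and 12. Mmp14 lies on chromosome 14 from 54431612 to 54445364.

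Mmp2, gelatinase A, made mainly by fibroblasts, lies on chromosome 8 from 92827291 to 92853420. The lowest, median and highest Trex2 KO libraries had 1225, 1971 and 2811 normalized counts, and the WT replicates 2 to 6 had 1953, 2554, 2250.5, 2951 and 2327. Trex2 KO replicates 10 and 11 were the 2 highest after WT replicate 5, so the genotypes were interleaved. The log2 fold change of Mmp2 was −0.26, with a 95% confidence interval of −0.68 to 0.17 (limma adjusted p = 0.43), and −0.04 without Trex2 KO replicates 9 and 12. The summed counts of 8 fibroblast markers were 45417 to 69510.0 in Trex2 KO and 50915 to 71132 in WT. The log2 fold changes of all 8 were negative (median −0.30). Trex2 KO replicate 9 had the lowest fibroblast sum (45417), as it had the lowest Mmp2. No fibroblast marker was at 0, and their part in the values of Mmp2 and the other stromal genes was not tested.

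Mmp19, a secreted MMP found in keratinocytes, vessels and myeloid cells, had the largest p among the 7 MMPs. Its lowest, median and highest Trex2 KO libraries had 299, 838 and 1204 normalized counts, and the WT replicates 2 to 6 had 450.1, 1318, 605, 1459 and 816. Libraries of both genotypes were interleaved, with WT replicates 5 and 3 highest and Trex2 KO replicate 9 lowest. The log2 fold change of Mmp19 was −0.30 (95% confidence interval −1.09 to 0.50, limma adjusted p = 0.637), and 0.15 without Trex2 KO replicates 9 and 12. Mmp19 lies on chromosome 10 from 128790910 to 128800824. Of its exon bases 22.3% overlap Tmem198b on the other strand, which averaged 80.6 normalized counts in Trex2 KO and 122 in WT, and reads of such a stretch cannot be told apart where strand was not used in counting.

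**Figure D3:**
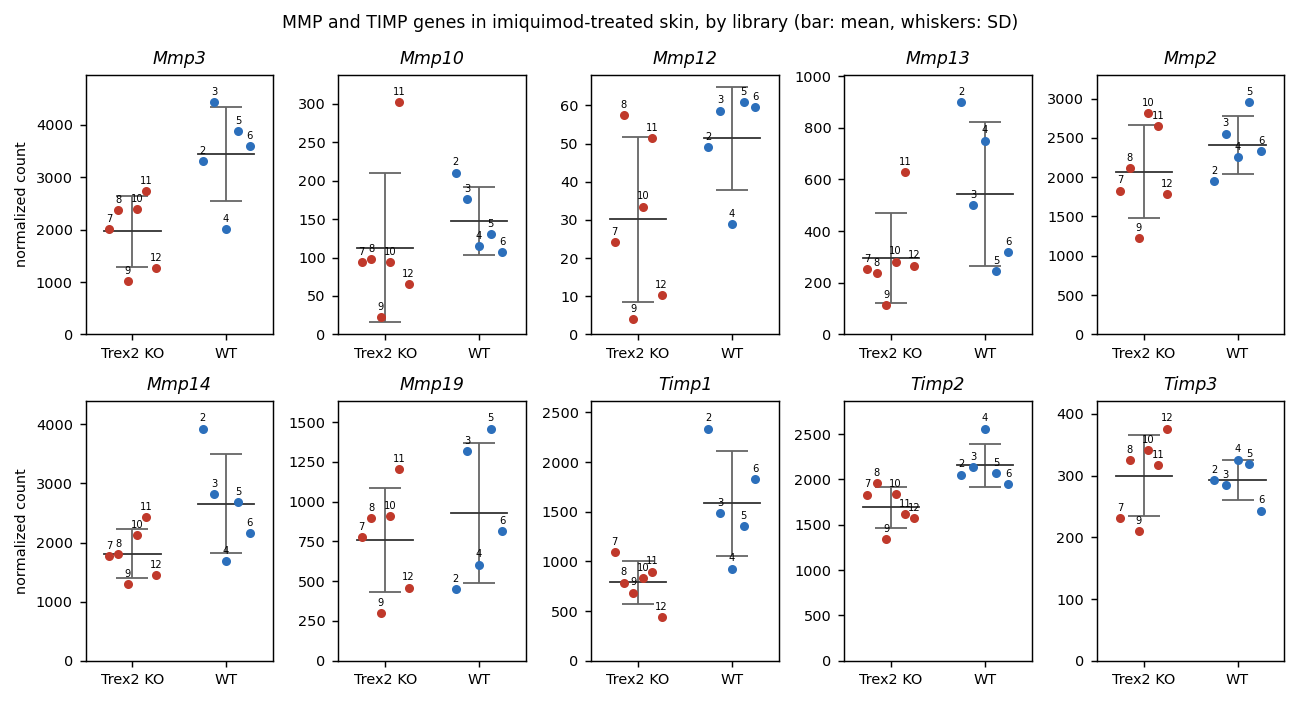
Normalized counts of the 10 genes in each library, Trex2 KO left and WT right, with the replicate number above each point, a bar at the mean and whiskers of 1 SD. No gene separates the genotypes fully. Trex2 KO replicate 9 is at or near the bottom of every panel, and replicate 11 is the highest Trex2 KO library of Mmp10 and Mmp13.

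Trex2 KO replicates 9 and 12 lay low for most of the 10 genes. Trex2 KO replicate 9 was the lowest of the 11 libraries for 9 of the 10 genes, and replicate 12 was lowest for the remaining gene, Timp1. By comparison, replicate 9 was lowest of the 11 for 13.8% of all tested genes. Replicates 9 and 12 were the 2 lowest of all 11 libraries for 7 of the 10 genes, against 12.1% of tested genes. Averaged over the 10 genes, each on a log2 scale and centred on its own mean, replicate 9 stood at −1.22 and replicate 12 at −0.62, replicates 7, 8 and 10 at −0.20, −0.01 and 0.01, and replicate 11 at 0.40. The WT replicates 2 to 6 stood at 0.47, 0.51, 0.07, 0.38 and 0.22, so replicate 11 of Trex2 KO lay within the WT range.

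Replicates 9 and 12 did not depart equally for all genes. Their mean log2(normalized count + 1) minus that of the other 4 Trex2 KO libraries was −2.43 for Mmp12, −1.70 for Mmp10, −1.33 for Mmp19 and −1.06 for Mmp3, but −0.32 for Timp2 and −0.09 for Timp3. The ratio of the highest to the lowest Trex2 KO library was 14.5 for Mmp12 and 13.6 for Mmp10, against 2.10 and 1.97 within WT. For Timp2 it was 1.46 in Trex2 KO and 1.31 in WT. Of the 11 libraries, replicates 9 and 12 also had the highest summed keratinocyte and hair follicle markers and the lowest summed fibroblast, macrophage, endothelial, mural cell and skeletal muscle markers. Of the 6 hair follicle markers only 3 (Foxn1, Tchh and Gata3) reached the minimum for testing, and they make up nearly all of that sum. Krt25, Krt27 and Krt71 were near 0 in both genotypes, so the sum does not show more hair follicle in these libraries. Summed endothelial markers were 1053 to 2660 in Trex2 KO and 1742 to 2888 in WT, and summed mural markers 5672 to 12019 in Trex2 KO and 10079 to 15155 in WT. Des was by far the largest part of the mural sum, with means of 7609 in Trex2 KO and 10725 in WT. That sum therefore mainly follows Des and does not show fewer mural cells in Trex2 KO replicates 9 and 12. Of the 5 mural markers 4 had a negative log2 fold change, and Myh11 stood at 0.19. The part of these cell types in the values was not tested.

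**Figure D4:**
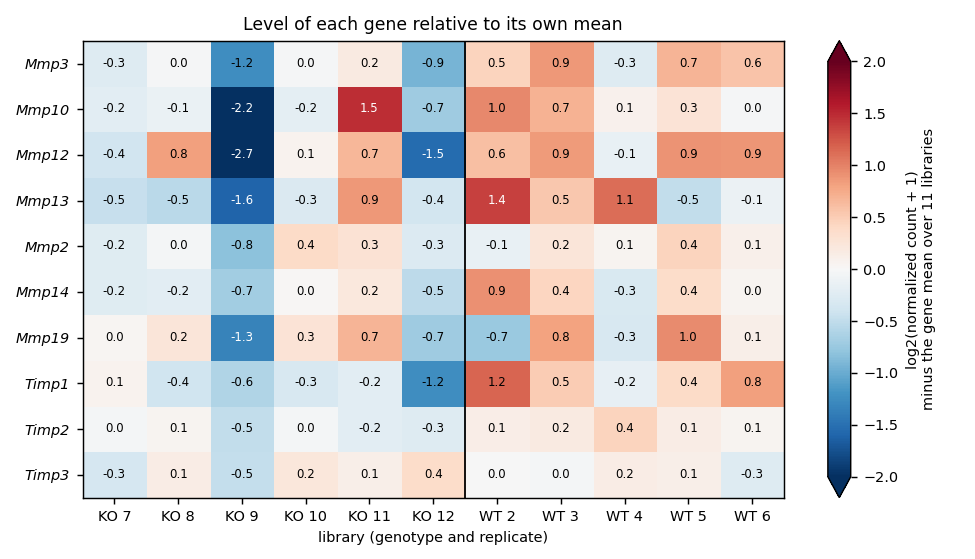
Level of each gene in each library as log2(normalized count + 1) minus the gene's mean over 11 libraries, with Trex2 KO libraries left of the line and WT right of it. Replicate 9 is the lowest column, replicate 12 is low for most MMPs and for Timp1 but not for Timp3, and replicate 11 is high for Mmp10 and Mmp13.

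To see which of these genes varied together, levels were centred on their group mean and compared by Pearson's r over the 11 libraries, given as a description. Mmp3 and Mmp12 were the most alike of the 45 pairs (r = 0.92, and 0.81 over the 9 libraries without Trex2 KO replicates 9 and 12). Mmp2 and Mmp19 followed (0.88 and 0.76), and Mmp10 and Mmp13 stood at 0.79 and 0.71. The libraries are the points in each case, so replicates 9 and 12 weigh on all pairs: Mmp2 and Mmp10 had r = 0.69 with them and 0.17 without. Over the 11 libraries Timp1 and Timp3 had the lowest value, −0.46 (−0.60 without replicates 9 and 12). Timp2 turned with those libraries: its r with Mmp3 was 0.28 with them and −0.75 without, the lowest of the 45 pairs over 9 libraries, and its r with Mmp12 was 0.52 with them and −0.55 without.

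Among 8146 other genes with a mean of at least 100 normalized counts, the 2 most like each of the 10 were named by the same measure, and being the highest of so many they are high by selection. For Mmp3 these were Anxa11 (r = 0.98), an annexin, and Vim (0.97), the vimentin of mesenchymal and other cells. For Timp1 they were Lgals1 (0.97), galectin 1, and Tnni2 (0.96), a troponin of fast skeletal muscle. For Mmp2 they were Lama4 (0.98), a laminin chain of vessel walls, and Slit2 (0.97), a secreted guidance protein. For Mmp12 they were Fermt2 and Pdk2 (0.98 each, and 0.94 and 0.87 without replicates 9 and 12), and for Mmp10 they were Ifi202b (0.97), an interferon-inducible gene, and Ehbp1l1 (0.95). For Mmp13 they were Arl4c and Trps1 (0.92 each), for Mmp14 Hk2 and Klf9 (0.95 and 0.94) and for Mmp19 Ppm1f and Sparcl1 (0.98 each). Those of Timp2 were Phactr2 and Man1c1 (0.85 and 0.84, both 0.68 without replicates 9 and 12), and those of Timp3 were Spin1 and Slc25a24 (0.95 and 0.94, and 0.95 and 0.88 without). For the other named genes r was 0.91 to 0.98 without replicates 9 and 12.

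The rest of the family was read from a list of 16 further MMP genes with Timp4 and Reck, a membrane inhibitor of MMPs. Of these 18 genes 10 were tested, 9 with a negative log2 fold change, and the median was −0.20. With an unadjusted limma p under 0.05, 3 were lower and 1 higher in Trex2 KO, against 11.5% and 12.9% of all tested genes. In limma 0 passed an adjusted p of 0.05. DESeq2 called 1, Mmp9, as lower, against 2.18% of all tested genes, and gave no adjusted p for Mmp27 and Mmp28. Without Trex2 KO replicates 9 and 12, 1 was lower (Mmp9), against 6% of tested genes, and 0 higher, with a median of −0.13. The lower ones were Mmp9 and Mmp8, the gelatinase and collagenase stored in neutrophil granules, and Mmp23 (log2 fold change −0.58). Mmp8, which lies in the chromosome 9 cluster after Mmp10, averaged 1544 ± 1016 normalized counts in Trex2 KO and 3185 ± 1269.8 in WT (SD, n = 6 and 5), with a log2 fold change of −1.26 (SE 0.45, limma adjusted p = 0.135). Mmp9 averaged 1134 ± 578 in Trex2 KO and 2309 ± 495 in WT (log2 fold change −1.19, limma adjusted p = 0.108, DESeq2 adjusted p = 0.0448). Genotypes did not overlap for 1 of 10 tested (Mmp9), against 1.29% of tested genes wholly lower and 1.02% wholly higher in Trex2 KO. The 1 gene higher by an unadjusted limma p under 0.05 was Mmp28, epilysin, an MMP of keratinocytes. It averaged 37.6 ± 12.8 in Trex2 KO and 20.8 ± 9.28 in WT (log2 fold change 0.85, limma adjusted p = 0.14). Without Trex2 KO replicates 9 and 12 the log2 fold change was −0.69 for Mmp9, −0.62 for Mmp8 and 0.75 for Mmp28.

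Neutrophil markers lay on the same side as Mmp8 and Mmp9. The summed normalized counts of 8 markers ranged from 8379 to 49336 in Trex2 KO and from 26853 to 66830.0 in WT, all 8 had a negative log2 fold change (median −1.34, and −0.70 without Trex2 KO replicates 9 and 12), none was at 0, and their part in the values of these 2 genes was not tested. The 8 keratinocyte markers all had a positive log2 fold change (median 1.25, and 0.80 without Trex2 KO replicates 9 and 12), on the same side as Mmp28 and, below, St14 and Col17a1, and their part there was not tested either. The 8 family genes below the minimum were Mmp1a, Mmp1b, Mmp7, Mmp16, Mmp17, Mmp20, Mmp21 and Mmp24. Mmp1b, which overlaps the end of Mmp12 on the other strand, averaged 10.3 ± 6.24 in Trex2 KO and 5.63 ± 3.68 in WT, and Mmp1a averaged 8.89 ± 4.66 in Trex2 KO and 9.11 ± 7.11 in WT. Mmp20, an enzyme of developing tooth enamel, and Mmp21 had 0 reads in all 11 libraries.

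Genes that act before and after the MMPs were read from 4 further lists, in none of which any gene passed an adjusted p of 0.05 in limma. With an unadjusted limma p under 0.05, 11.5% of all tested genes were lower and 12.9% higher. Without Trex2 KO replicates 9 and 12, 6% were lower, and the share that was higher is not given here, so the counts of higher genes in that setting have no comparison. Among 14 tested proMMP activators and their regulators 2 were lower and 2 higher (median −0.17), and without Trex2 KO replicates 9 and 12, 0 were lower and 2 higher (median −0.10). St14, the membrane serine protease matriptase, averaged 491 ± 132 in Trex2 KO and 291 ± 107 in WT (log2 fold change 0.80, limma adjusted p = 0.112), and Pcsk6, a proprotein convertase, had a log2 fold change of 0.70. Without Trex2 KO replicates 9 and 12 these were 0.58 for St14 and 0.48 for Pcsk6. The lower ones were Pcsk5 (−0.55), another convertase, and Plat (−0.41), tissue plasminogen activator. Furin, which activates proMmp14, stood at 0.14 (limma adjusted p = 0.654), and Plau, urokinase, at 0.01.

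Among 13 tested ADAM and ADAMTS genes 3 were lower and 0 higher, with a median of −0.30, and without Trex2 KO replicates 9 and 12, 1 was lower (Adamts5, −0.44) and 0 higher, with a median of −0.04. Adamts5, an aggrecanase, averaged 455 ± 96.2 in Trex2 KO and 660.3 ± 138 in WT (log2 fold change −0.54, limma adjusted p = 0.11), Adam12 stood at −0.77 and Adam15 at −0.34. Adam10, a sheddase, was the fourth by p at 0.29 (limma adjusted p = 0.29). Adam17, the sheddase that Timp3 inhibits, stood at −0.01 (limma adjusted p = 0.976).

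Among 21 matrix substrates 0 were lower and 1 higher, with a median of −0.17, which was 0.08 without Trex2 KO replicates 9 and 12. The higher gene was Col17a1, the hemidesmosome collagen of basal keratinocytes, with 2855 ± 1097 in Trex2 KO and 1316 ± 777 in WT (log2 fold change 1.22, SE 0.36, limma adjusted p = 0.108). DESeq2 called it higher (adjusted p = 0.0461), and the limma estimate was 0.95 without Trex2 KO replicates 9 and 12. Col1a2 and Col1a1, the chains of type I collagen, stood at −0.31 and −0.29, and Dcn, decorin, at −0.40. Among 18 tested cytokines and transcription factors known to induce MMP genes 5 were lower and 0 higher, with a median of −0.36, and without Trex2 KO replicates 9 and 12, 0 were lower and 2 higher, with a median of 0.03. Tnf, tumour necrosis factor, averaged 205 ± 145 in Trex2 KO and 393 ± 127 in WT (log2 fold change −1.33, SE 0.53, limma adjusted p = 0.155), Il1a stood at −0.72, Ets1 at −0.55 and Tgfb1 at −0.43. Without those 2 libraries Tnf was at −0.51, Il1a at −0.45, Ets1 at −0.30 and Tgfb1 at −0.19. Of the AP-1 subunits, Fosl1 had a log2 fold change of −0.37, Fos 0.52, Jun 0.08, Junb 0.10 and Jund 0.24, with limma adjusted p of 0.359 or more for each. Fos was at 1.05 without those 2 libraries (limma adjusted p = 0.353). Il17a and Il22, cytokines of psoriasis-like inflammation, averaged under 0.5 normalized counts in both genotypes and were not tested.

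**Figure D5:**
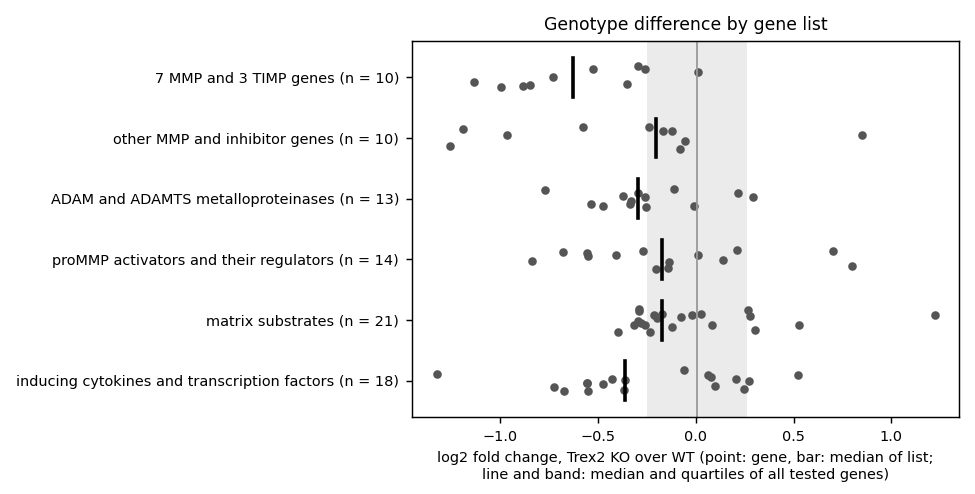
Log2 fold change, Trex2 KO over WT, of each tested gene in 6 lists (points) with the median of the list (bar), beside the median and quartiles of all tested genes (line and grey band, −0.24 to 0.26). The 7 MMP and 3 TIMP genes have a median of −0.63, and the medians of the other 5 lists lie between −0.36 and −0.17, with all 11 libraries. The lists were chosen with earlier results of these data known.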

How the data were processed

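Each deposited value is a normalized signal: reads counted per gene, which the authors scaled by a size factor of the library. The build GRCm38, DESeq2 1.8.1, TopHat2 2.0.8 and featureCounts 1.4.6 are named in the submitters' processing notes; the annotation, the strand setting and the handling of reads that match several genes were not given. Whole reads were recovered, since 100% of values were within 0.01 of a multiple of the library's smallest step. A floor of 3 reads equals 1.04 to 13.5 normalized counts.

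Genes with a mean of at least 10 were tested with limma 3.58.1 in R 4.3.3 (moderated variances with a trend) on log2(value + 1), where the added 1 shrinks the change of low genes. That does not make these limma estimates smaller than those of the count models. For Mmp12 limma gave −1.13, edgeR −0.74 and DESeq2 −0.76, and for Mmp10 they gave −0.73, −0.36 and −0.39. Recovered reads also went through edgeR 4.0.16 and DESeq2 1.42.0. Scripts were tested on simulated counts. Alternatives were pseudocounts of 0.5 and 5, other filters and scalings, a depth covariate and leaving out libraries. Exact permutation of the genotype labels (462 arrangements, two-sided, unadjusted, each gene alone) gave p from 0.00649 (Timp2) to 0.957 (Timp3), with 0.00866 for Timp1 and 0.0195 for Mmp3; it cannot go below 0.00216.

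Of each list the genes past the threshold, or else up to 4 of smallest p, were named. Furin, Plau, Adam17, the AP-1 subunits, Il17a, Il22, the untested MMP genes and the genes that overlap Mmp19, Timp1 and Timp3 were named after their values were seen, as were the likeness and the lists without Trex2 KO replicates 9 and 12 and the count at an unadjusted p under other settings. The 10 genes and all lists were chosen with earlier results of these data known, and the fibroblast and matrix lists share Col1a1, Col1a2, Col3a1 and Dcn. Among pairs of libraries of 1 genotype the lowest chi-square per degree of freedom was 4.74, for WT replicates 3 and 5. It was taken on reads and grows with depth, and WT replicate 3 had the fewest reads (1208896), so it does not rank similarity.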

Additional observations from a re-analysis of the deposited data

Results flagged for a closer look

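Dixon's test at the 95% level, on the gap between normalized counts, was applied to 20 sets of libraries (10 genes in each genotype). About 1 in 20 sets of normally distributed values exceed it by chance. In 2 of the sets a library lay far from the others. Both concerned the same library: Trex2 KO replicate 11 had 302 normalized counts of Mmp10, where the other 5 Trex2 KO libraries had at most 98.4, and 629 of Mmp13, where the next highest Trex2 KO library had 282. These rest on 563 and 1173 reads. On the log2 scale of the fold changes the test was not run. There, centred on the gene mean, Trex2 KO replicates 11 and 9 stood at 1.47 and −2.23 for Mmp10, and 0.86 and −1.61 for Mmp13. Without Trex2 KO replicate 11 the log2 fold change of Mmp10 was −1.09 and that of Mmp13 −1.14, and neither passed an adjusted p of 0.05 in limma.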

How the results depend on the processing

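With limma on all 11 libraries, none of the 10 genes and 2 genes in all were called under pseudocounts of 0.5 or 5, no filter or a minimum of 50 (which leaves out Mmp12), TMM or upper quartile scaling, or log10 depth as a covariate, and likewise without Trex2 KO replicates 9 and 12. DESeq2 called 2 of the 10 (Mmp3 and Timp1) and 617 genes in all, and edgeR 0 and 4. Leaving out 1 library gave 0 to 2 calls among the 10 and 2 to 740 among all genes, where the 2 (Mmp3 and Timp1) and the 740 came without WT replicate 4. The count of the 10 with an unadjusted p under 0.05 and a lower Trex2 KO mean was 5 in limma on all libraries, against 11.5% of tested genes. It was 4 or 5 under the other pseudocounts, filters, scalings and tools (7.65% to 13.4% of tested genes) and 0 with the depth covariate (2.29%). With 1 library left out it was 3 to 7 (7.51% to 13.3% of tested genes), where 7 came without Trex2 KO replicate 11 (12%). Mmp19 was at 0.15 without Trex2 KO replicates 9 and 12. Timp3 was at −0.030 with upper quartile scaling, −0.26 with the depth covariate and −0.061 to 0.11 with 1 library left out, negative without Trex2 KO replicates 8, 10, 11 or 12 or WT replicate 6. The other 8 genes had a negative estimate under each of the 21 alternatives that tested them. With depth, which differs between the genotypes, as a covariate, Timp1 was at −0.64 and the median of the 10 at −0.54. Without Trex2 KO replicate 9 that median was −0.39. The causes were not tested. No paired analysis was possible because the genotypes share no replicate numbers. Mmp12, with 5 to 96 reads per library, was limited most by depth.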

Other observations

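Ratios between an enzyme and an inhibitor, or between inhibitors, were taken per library on the scale of normalized counts per kilobase. All overlapped between the genotypes. Mmp13 over Timp1 was 0.0547 to 0.233 in Trex2 KO (median 0.106) and 0.0578 to 0.269 in WT (median 0.112). Mmp3 over Timp1 was 0.731 to 1.5 in Trex2 KO (median 1.42) and 0.698 to 1.47 in WT (median 1.07). Mmp14 over Timp2 was 0.601 to 0.98 in Trex2 KO (median 0.633) and 0.43 to 1.25 in WT (median 0.848). Mmp2 over Timp2, the substrate and the adaptor of the Mmp14 activation complex, was 1.06 to 1.89 in Trex2 KO (median 1.28) and 1.02 to 1.65 in WT (median 1.38). Timp1 over Timp2 was 1.22 to 2.61 in Trex2 KO (median 2.12) and 1.59 to 4.99 in WT (median 3.05). These ratios were not tested.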
